A study of Mus musculus with 24 samples.

Results

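The transcripts of 8 TALE homeobox genes, *Meis1*, *Meis2*, *Meis3*, *Pbx2*, *Pbx3*, *Pbx4*, *Pknox1* and *Pknox2*, were followed in mouse embryonic stem cells (ESCs) through the first 6 h of retinoic acid (RA) stimulation. They were taken by symbol from a table of 26264 genes, and all 8 were counted well enough to be tested in every comparison. The table held poly(A) RNA-seq libraries of a BAP1-AID and a UTX-AID ESC clone. Each clone was collected without (−IAA) and with (+IAA) indole-3-acetic acid, before RA (0 h) and after 3 and 6 h of it. The 12 groups held 2 replicates each, which made 24 libraries. In BAP1-AID ESCs the degron tag was fused to BAP1, the deubiquitinase that takes ubiquitin off histone H2A, and in UTX-AID ESCs to UTX, a demethylase of histone H3 lysine 27. Both clones also expressed TIR1, through which the auxin IAA sends the tagged protein to degradation, and IAA was added before RA. RA is a vitamin A derivative that starts differentiation, and the medium with RA lacked leukemia inhibitory factor. ESCs were otherwise cultured with that factor, and no library was collected at 3 or 6 h without RA. An effect of RA therefore cannot be told apart from loss of that factor or from time in culture. A response to RA means here the change from 0 h. An untagged line with IAA was not analysed here, so an effect of IAA itself cannot be told apart from loss of the tagged protein, and each tagged protein was studied in 1 clone.

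TALE proteins carry a homeodomain with a loop extended by 3 amino acids. PBX proteins bind DNA together with HOX proteins and with MEIS or PKNOX (also called PREP) proteins, and a MEIS or PKNOX partner holds PBX in the nucleus. In the embryo, RA switches on Hox genes of the anterior paralog groups in the hindbrain, where MEIS and PBX proteins act with HOX proteins on shared enhancers. *Meis1* and *Meis2* are known RA-responsive genes in limb buds and embryonal carcinoma cells.

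The members lay on 6 chromosomes of mm39. *Meis2* was annotated on the minus strand of chromosome 2 from 115693062 to 115896341, *Meis1* on the minus strand of chromosome 11 from 18829817 to 18969749, and *Pbx2* on the plus strand of chromosome 17 from 34810240 to 34816375. *Pbx3* lay on the minus strand of chromosome 2 from 34061469 to 34263154, and *Pknox2* on the minus strand of chromosome 9 from 36801548 to 37059214. *Pbx2* overlapped *Gpsm3* on the same strand. *Gpsm3* held 173 to 657 counts per library against at least 1367 for *Pbx2*, and how reads of the shared stretch were split between them is not stated. *Meis2* overlapped the antisense RNA *G630016G05Rik*, which held 0 to 8 counts per library against at least 227 for *Meis2*.

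The 250 bases before the start site are shown for the 3 members with a promoter entry that rose with RA, and for *Meis3*. Among the members with an entry, *Meis3* alone had a match to an RA receptor hexamer. They are RefSeq sequences of GRCm38.p6, an older build than that of the counts, and 5 of the 8 members had an entry. Each is written 5′ to 3′ on the strand of its gene, and capitals mark the hexamer. *Meis2* was read from chr2:116064620-116064869 (minus strand), *Pbx2* from chr17:34592009-34592258 (plus strand), *Meis1* from chr11:19018970-19019219 (minus strand) and *Meis3* from chr7:16175145-16175394 (plus strand).
Meis2: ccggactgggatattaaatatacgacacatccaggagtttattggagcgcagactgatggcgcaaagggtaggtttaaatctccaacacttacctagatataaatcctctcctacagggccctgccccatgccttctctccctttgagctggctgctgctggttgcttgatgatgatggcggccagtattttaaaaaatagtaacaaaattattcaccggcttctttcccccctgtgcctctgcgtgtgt
Pbx2: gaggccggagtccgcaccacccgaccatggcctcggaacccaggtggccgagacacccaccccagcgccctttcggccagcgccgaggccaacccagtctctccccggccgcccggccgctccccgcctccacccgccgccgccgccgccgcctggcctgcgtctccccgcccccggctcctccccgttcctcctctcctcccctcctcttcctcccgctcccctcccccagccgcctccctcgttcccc
Meis1: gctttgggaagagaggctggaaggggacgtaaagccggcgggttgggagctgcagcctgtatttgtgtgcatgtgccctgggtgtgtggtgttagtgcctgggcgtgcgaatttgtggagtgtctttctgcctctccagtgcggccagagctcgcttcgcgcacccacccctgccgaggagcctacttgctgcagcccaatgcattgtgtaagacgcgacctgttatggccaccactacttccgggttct
Meis3: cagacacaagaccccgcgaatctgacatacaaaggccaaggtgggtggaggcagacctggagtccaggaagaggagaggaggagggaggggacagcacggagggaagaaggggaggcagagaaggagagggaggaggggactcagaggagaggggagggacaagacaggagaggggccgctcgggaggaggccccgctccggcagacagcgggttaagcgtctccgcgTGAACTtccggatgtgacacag
The 4 sequences differed in base composition. G and C made up 47.6% of the *Meis2* promoter, 59.6% of *Meis1*, 63.6% of *Meis3* and 77.6% of *Pbx2*, against a median of 52.4% over 32851 promoters. The hexamer was searched on both strands as AGGTCA or as GGGTCA or as AGTTCA or as GGTTCA. *Meis3* held 1 match, AGTTCA on the strand opposite to the gene, from 22 to 17 bases before the start site. Of all promoters of this length, 38.6% held a match, and 0.426% held a pair of hexamers in direct repeat with a spacing of 1, 2 or 5 bases. The promoters of *Meis1*, *Meis2*, *Pbx2* and *Pbx4* held no match. None of the 5 promoters searched held the MEIS hexamer TGACAG, present in 15.9% of all promoters. None held the PBX octamer TGATTGAC with C or T as its last base, present in 1.35%. *Pbx3*, *Pknox1* and *Pknox2* had no entry and were not searched. These counts say only which letters stood in these windows.

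The libraries summed to between 42018795 and 54034789 counts. Levels are given as CPM, which are counts divided by library size after TMM scaling over all 24 libraries, and 3 counts corresponded to 0.0545 to 0.0695 CPM. The quasi-likelihood test of edgeR gave the p-values, Benjamini-Hochberg adjustment covered all genes tested, and called means an adjusted p under 0.05. Nothing in the labels says that the replicates were separate cultures, so the tests measure the spread between these libraries, which may be technical. The −IAA BAP1-AID libraries at 3 h differed most from each other of the 12 pairs of replicates, with a chi-square statistic per gene of 63.7 against 5.8 to 22.6 in the other pairs. All 8 ESC markers, *Pou5f1* and *Nanog* among them, had a mean above 1 CPM in both clones, with summed levels of 3525 to 4399 CPM in BAP1-AID and 3729 to 4221 CPM in UTX-AID. Of the 5 fibroblast markers only *Thy1* was above 1 CPM, and *Postn* was at 0 in all 24 libraries.

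Before RA, *Pbx2* and *Pknox1* were the members with the most transcript for their length. In −IAA BAP1-AID ESCs at 0 h, the level per kilobase of transcript was 10.1 ± 0.937 CPM per kb for *Pbx2* and 9.50 ± 0.0961 for *Pknox1* (mean ± SD, n = 2), and their libraries overlapped. *Pbx3* followed at 6.39 ± 0.696, *Meis2* at 2.74 ± 0.144, *Meis1* at 0.961 ± 0.0611 and *Pbx4* at 0.690 ± 0.0397 CPM per kb. *Meis3* at 0.461 ± 0.0289 and *Pknox2* at 0.414 ± 0.0734 CPM per kb came last and overlapped. The plot of the 8 members across the libraries shows *Meis2* and *Pbx2* going up in both clones, and *Meis1* and *Pknox2* in BAP1-AID.

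**Figure D1:**
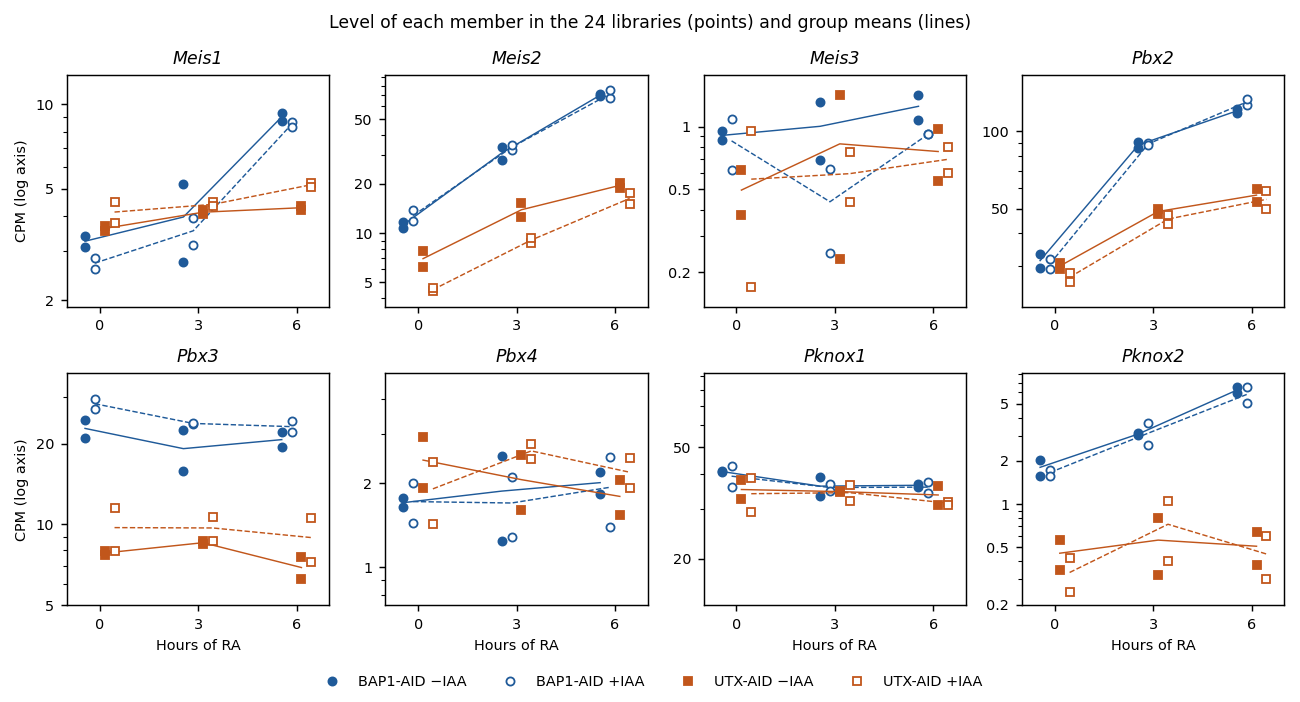
Level of each of the 8 members in CPM (log axis, own range in each panel) against hours of RA. Points are single libraries, 2 per group, and lines join group means; circles are BAP1-AID and squares UTX-AID, filled and solid without IAA, open and dashed with IAA. *Meis2* climbs in all 4 series, from 4.42 CPM in the lowest library to 74.9 CPM in the highest, and *Pknox1* stays between 29.3 and 42.8 CPM.

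The first question was which of these genes changed from 0 h in the medium with RA and without leukemia inhibitory factor. *Meis2* and *Pbx2* rose at 3 h and again by 6 h in the BAP1-AID clone, and *Meis1* and *Pknox2* were called at 6 h. Each of the 4 genes had more than doubled by 6 h in both IAA arms. *Meis3*, *Pbx3*, *Pbx4* and *Pknox1* did not pass the test at either time in either arm. In these bulk libraries, a change in the number of responding cells and a change in RNA per cell cannot be told apart. Summed markers of other cell types also moved with RA. The summed level of the 5 trophoblast markers was higher at 6 h than at 0 h without overlap in all 4 series. Of these, *Eomes*, *Tfap2c* and *Krt8* had a mean above 1 CPM. Over the BAP1-AID libraries *Tfap2c* ranged from 1.64 to 14.1 CPM, *Eomes* from 5.95 to 15.4 CPM and *Krt8* from 0.800 to 3.39 CPM. The sum therefore does not show that the trophoblast markers rose together. The sum went from 16.4 to 17.3 CPM up to 22.8 to 23 CPM in −IAA BAP1-AID. In −IAA UTX-AID it went from 13.1 to 14 CPM up to 16.6 to 18.7 CPM. The summed level of the fibroblast markers was lower at 6 h without overlap in all 4 series. Only *Thy1* among them had a mean above 1 CPM, so this sum is mostly that of 1 gene. It was 4.69 to 5.85 against 2.17 to 2.47 CPM in −IAA BAP1-AID, and 4.77 to 5.4 against 1.76 to 3.69 CPM in −IAA UTX-AID. The part of these markers in the RA results was not tested.

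*Meis2* encodes a MEIS partner of PBX and HOX proteins. In −IAA BAP1-AID ESCs it stood at 11.7 and 10.8 CPM at 0 h, at 28.0 and 33.9 CPM at 3 h, and at 70.8 and 69.1 CPM at 6 h. With IAA the libraries held 13.8 and 11.8, then 32.4 and 34.7, then 67.6 and 74.9 CPM. No library of a later time overlapped one of an earlier time in either arm. The fold change was 2.78 at 3 h and 6.33 at 6 h without IAA (log2 1.47, SE 0.111, adjusted p = 3.44e-06, and log2 2.66, SE 0.113, adjusted p = 1.30e-08). With IAA it was 2.67 and 5.64 (log2 1.42, SE 0.110, adjusted p = 4.05e-06, and log2 2.49, SE 0.112, adjusted p = 2.02e-08).

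*Pbx2* encodes a broadly expressed PBX protein, the subunit that contacts HOX proteins directly. In −IAA BAP1-AID ESCs it went from 33.4 and 29.3 CPM at 0 h to 86.1 and 90.8 CPM at 3 h and to 122 and 118 CPM at 6 h. With IAA the libraries held 31.7 and 29.2, then 90.0 and 88.6, then 127 and 133 CPM. The times did not overlap here either. Most of the rise had taken place by 3 h, with a fold change of 2.85 at 3 h and 3.90 at 6 h without IAA (log2 1.51, SE 0.0778, adjusted p = 1.21e-07, and log2 1.96, SE 0.0785, adjusted p = 8.28e-09) and of 2.99 and 4.33 with IAA (adjusted p = 8.34e-08 and 4.76e-09).

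*Meis1*, a close relative of *Meis2* and a cofactor of HOX proteins in blood and leukemia, came later. In −IAA BAP1-AID ESCs its libraries held 3.39 and 3.10 CPM at 0 h, 2.74 and 5.18 CPM at 3 h, and 8.72 and 9.34 CPM at 6 h. The replicates at 3 h lay on either side of the 0 h values, and those at 6 h lay above all others. With IAA the values were 2.83 and 2.59, then 3.93 and 3.14, then 8.66 and 8.32 CPM. The fold change at 6 h was 2.84 without and 3.17 with IAA (log2 1.51, SE 0.241, adjusted p = 0.00106, and log2 1.67, SE 0.245, adjusted p = 0.000487). At 3 h the log2 fold change was 0.31 (95% interval −0.23 to 0.84, adjusted p = 0.629) and 0.41 with IAA (adjusted p = 0.492), but without −IAA 3 h replicate 1 the first became 0.69 (adjusted p = 0.0427).

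*Pknox2*, which encodes a PREP-type partner of PBX proteins, was low at 0 h and rose by 6 h. The −IAA BAP1-AID libraries held 1.58 and 2.03 CPM at 0 h, 3.03 and 3.13 CPM at 3 h, and 5.93 and 6.5 CPM at 6 h. With IAA they held 1.74 and 1.58, then 2.58 and 3.66, then 6.52 and 5.07 CPM. The 3 times did not overlap in either arm. The fold change at 6 h was 3.50 without and 3.53 with IAA (log2 1.81, SE 0.228, adjusted p = 0.000166, and log2 1.82, SE 0.230, adjusted p = 0.000141). At 3 h the log2 fold change was 0.78 without IAA (SE 0.229, adjusted p = 0.0625) and 0.94 with IAA (SE 0.231, adjusted p = 0.0301). The call at 3 h was lost on leaving out any 1 of 5 libraries, namely either +IAA 0 h library, +IAA 3 h replicate 2 or either −IAA 6 h library, with adjusted p-values from 0.0559 to 0.312, and so *Pknox2* is described as risen at 6 h only.

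In −IAA BAP1-AID ESCs, 2 of the 8 members were called at 3 h, where 7.37% of the 15695 genes tested were called, and 4 of 8 at 6 h, against 15.9%. In the +IAA arm the counts were 3 of 8 against 6.52%, and 4 of 8 against 15.4%. All calls among the members were upward. With a log2 fold change above 1 in size asked for as well, 2 members at 3 h and 4 at 6 h passed without IAA, against 2.25% and 4.10% of all genes. With IAA, 2 and 4 passed, against 2.41% and 4.51%. The median log2 fold change of the 8 members at 6 h was 1.00 without IAA, against 0.016 over all genes tested. No member lay near that median. The 4 called members stood at 1.51 to 2.66 and the other 4 at −0.14 to 0.50, so the family did not shift as a whole. Members were chosen with earlier results of these data known. Shares of members called, here and in UTX-AID, are therefore descriptions and not a test of the family.

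From 3 to 6 h, averaged over both arms of the BAP1-AID clone, the same 4 genes rose further. The log2 fold change was 1.23 for *Meis1* (SE 0.169, adjusted p = 0.00104), 1.13 for *Meis2* (SE 0.0744, adjusted p = 6.26e-06), 0.95 for *Pknox2* (SE 0.155, adjusted p = 0.00302) and 0.49 for *Pbx2* (SE 0.0531, adjusted p = 0.000215). Of all genes, 8.14% were called in this comparison.

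In the UTX-AID clone, *Meis2* and *Pbx2* rose at both times and in both arms, and *Meis1* and *Pknox2* did not pass the test. *Meis2* in −IAA libraries held 7.76 and 6.19 CPM at 0 h, 12.5 and 15.3 CPM at 3 h, and 19 and 20.2 CPM at 6 h. With IAA it held 4.42 and 4.58, then 8.74 and 9.39, then 15.1 and 17.5 CPM. The times did not overlap within an arm. The fold change at 6 h was 2.84 without IAA and 3.70 with IAA (log2 1.5, SE 0.147, adjusted p = 5.51e-06, and log2 1.89, SE 0.151, adjusted p = 7.47e-07). At 3 h it was 2.01 and 2.05 (adjusted p = 0.000426 and 0.000514).

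*Pbx2* in −IAA UTX-AID ESCs stood at 29.0 and 30.7 CPM at 0 h, 47.4 and 50.0 CPM at 3 h, and 53.2 and 59.6 CPM at 6 h. With IAA the libraries held 25.9 and 28.1, then 43.7 and 47.3, then 49.9 and 58.7 CPM. All libraries with RA lay above those at 0 h, and the 3 and 6 h groups were close together. The fold change at 6 h was 1.91 and 2.05 in the −IAA and +IAA arms (log2 0.93, SE 0.0912, adjusted p = 5.63e-06, and log2 1.04, SE 0.0915, adjusted p = 1.84e-06), and at 3 h it was 1.65 and 1.71 (adjusted p = 0.000115 and 6.40e-05).

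*Meis1* in the UTX-AID clone lay between 3.54 and 5.26 CPM in all 12 libraries. Its log2 fold change at 6 h was 0.26 without IAA (95% interval −0.13 to 0.65, adjusted p = 0.551) and 0.35 with IAA (−0.032 to 0.74, adjusted p = 0.359). *Pknox2* held 13 to 53 counts per library in this clone, and the interval of its 6 h log2 fold change without IAA, −1.43 to 1.78, reached close to the BAP1-AID estimate of 1.81. With IAA the interval, −1.18 to 2.08, included the BAP1-AID estimate of 1.82. These intervals do not show that *Pknox2* responded less in UTX-AID, and a smaller rise was not detectable at this depth.

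Of the 8 members, 2 were called at 3 h and 2 at 6 h in −IAA UTX-AID ESCs, where 4.84% and 6.90% of the 16268 genes tested were called. With IAA the same counts, 2 and 2, stood against 3.57% and 6.45%. With the size criterion added, 1 member passed at 3 h and 1 at 6 h without IAA, against 1.51% and 1.91%, and 1 and 2 passed with IAA, against 1.26% and 2.0%. From 3 to 6 h only *Meis2* was called, with a log2 fold change of 0.68 (SE 0.101, adjusted p = 0.00232), in a comparison that called 1.67% of all genes. *Pbx2* changed by 0.24 (SE 0.0633, adjusted p = 0.0840). It passed with DESeq2 (adjusted p = 0.0353) and with no filter on low counts (adjusted p = 0.0457).

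**Figure D2:**
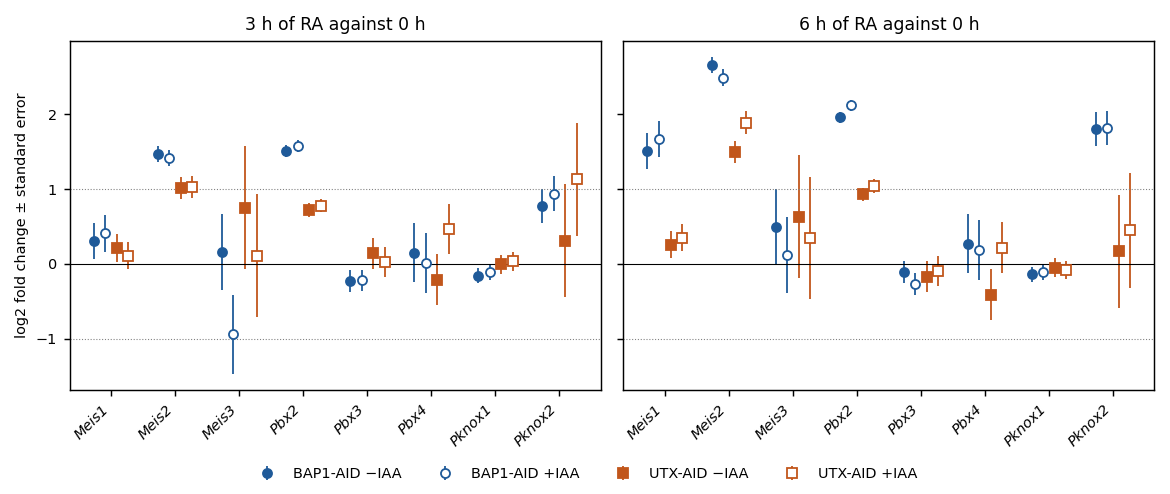
Log2 fold change of each member after 3 h (left) and 6 h (right) of RA against 0 h, with bars of 1 standard error, n = 2 libraries per group. Circles are BAP1-AID and squares UTX-AID, filled without and open with IAA; dotted lines mark a log2 fold change of 1 and −1. At 6 h *Meis1* and *Pknox2* stand above 1 in the BAP1-AID series alone, and *Meis2* stands above 1 in all 4.

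The members that did not pass with RA are described by their ranges. *Pknox1*, the other PREP-type gene, held 29.3 to 42.8 CPM over all 24 libraries, and its 8 log2 fold changes with RA lay between −0.16 and 0.033. *Pbx3*, a PBX gene expressed in the nervous system, held 15.9 to 29.4 CPM in BAP1-AID and 6.23 to 11.5 CPM in UTX-AID, and the clones did not overlap. Its 3 h log2 fold change in −IAA BAP1-AID ESCs was −0.23 (adjusted p = 0.479), and became −0.52 (adjusted p = 0.0107) without −IAA 3 h replicate 2, as the replicates held 15.9 and 22.5 CPM. *Pbx4*, best known from the testis, held 1.24 to 2.92 CPM. *Meis3* held 9 to 73 counts per library, or 0.171 to 1.42 CPM. With −IAA UTX-AID replicates of 0.232 and 1.42 CPM at 3 h, its spread between replicates was nearly as wide as its range over the series.

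By 6 h in −IAA BAP1-AID ESCs, the order per length had changed to *Pbx2* at 38.4 ± 0.899 CPM per kb, *Meis2* at 17.0 ± 0.290, *Pknox1* at 8.48 ± 0.131, *Pbx3* at 5.81 ± 0.526, *Meis1* at 2.68 ± 0.131 and *Pknox2* at 1.42 ± 0.0923, with no overlap between neighbours. *Meis2* thus moved past *Pbx3* and *Pknox1*. In −IAA UTX-AID ESCs at 6 h, *Pbx2* stood at 18.1 ± 1.44, *Pknox1* at 7.83 ± 0.851 and *Meis2* at 4.77 ± 0.198 CPM per kb, and *Meis2* moved past *Pbx3* alone.

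The next question was whether depletion of BAP1 or UTX altered these transcripts. No member passed the test of an RA response changed by IAA. In BAP1-AID ESCs the change of the 6 h response by IAA was −0.17 on the log2 scale for *Meis2* (95% interval −0.50 to 0.17), 0.15 for *Pbx2* (−0.083 to 0.39), 0.16 for *Meis1* (−0.58 to 0.90) and 0.012 for *Pknox2* (−0.68 to 0.70). In UTX-AID ESCs it was 0.38 for *Meis2* (−0.060 to 0.82, adjusted p = 1.000 by edgeR) and 0.10 for *Pbx2* (−0.17 to 0.38). Over the 4 comparisons of this kind, by clone and time, edgeR called 0 of the 8 members, 0 had an unadjusted p under 0.05, and DESeq2 called 0. Of all genes, BAP1-AID had 0% called at 3 h and 0.153% at 6 h. For UTX-AID these shares were 0.0123% and 0%. The intervals of *Meis1* and *Pknox2* were wider than those of *Meis2* and *Pbx2*, and a missed threshold does not show that the responses were equal.

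The level itself, averaged over the 3 times of RA, was lower with IAA for *Meis2* in the UTX-AID clone. The −IAA and +IAA libraries, given in full with the RA values, did not overlap at 0, 3, or 6 h. The log2 fold change was −0.50 (SE 0.0843, 95% interval −0.68 to −0.32, adjusted p = 0.00552), which is 1.42-fold lower with IAA, and *Meis2* was the only one of the 8 members called where 2.62% of all genes were called. It kept its call in each of the 12 fits that left out 1 library, with adjusted p-values of at most 0.0232. The summed level of the 5 neural progenitor markers was also lower with IAA in this clone, at 38.6 to 50.1 CPM without and 33.7 to 36.2 CPM with IAA. Only *Pax6*, *Sox1* and *Nes* among these markers had a mean above 1 CPM there. Their part in the *Meis2* result was not tested. In BAP1-AID ESCs the change of *Meis2* with IAA was 0.094 (−0.041 to 0.23, adjusted p = 0.271), and 0.16 (adjusted p = 0.0281) without −IAA 3 h replicate 2. *Meis1* changed by −0.19 there (adjusted p = 0.332), and by −0.31 (adjusted p = 0.0250) without −IAA 3 h replicate 1.

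In the +IAA arm of BAP1-AID *Pbx3* was higher, with a log2 fold change of 0.24 (SE 0.0835, adjusted p = 0.0392), the 1 call among 8 members in a comparison that called 36.1% of all genes. At 0 h the −IAA libraries held 21.1 and 24.6 CPM and the +IAA libraries 27.1 and 29.4 CPM. At 3 h they held 15.9 and 22.5 against 23.7 and 24 CPM, and at 6 h 19.4 and 22.1 against 22.1 and 24.3 CPM. The arms did not overlap at any of the 3 times, but they nearly met at 6 h. The call was lost without any 1 of 7 libraries, which were −IAA replicate 1 of 0, 3, or 6 h, +IAA 0 h replicate 2, either +IAA 3 h library and +IAA 6 h replicate 2, with adjusted p-values of 0.0527 to 0.108. In UTX-AID ESCs the change of *Pbx3* was 0.29 (SE 0.116, adjusted p = 0.239). The difference of the IAA effect on *Pbx3* between the clones was 0.026 (−0.28 to 0.33, adjusted p = 1.000).

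**Figure D3:**
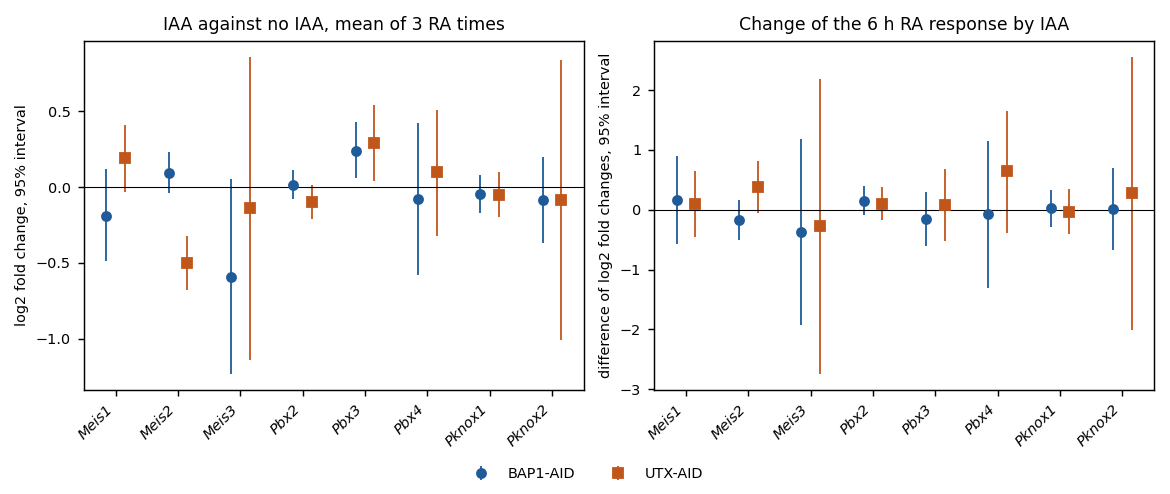
Left, log2 fold change of each member with against without IAA, averaged over 0, 3, and 6 h of RA; right, change of the 6 h RA response by IAA. Points are estimates from 12 libraries per clone and bars are 95% intervals; circles are BAP1-AID and squares UTX-AID. On the left the interval of *Meis2* in UTX-AID lies wholly under 0, at −0.68 to −0.32, and on the right every interval includes 0.

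The clones differed before any treatment. At 0 h without IAA, *Meis2* was 1.62-fold lower in UTX-AID than in BAP1-AID (log2 −0.69, SE 0.132, 95% interval −0.97 to −0.42, adjusted p = 0.000103). *Pbx3* was 2.91-fold lower, with 7.72 and 7.93 CPM against 21.1 and 24.6 CPM (log2 −1.54, SE 0.185, adjusted p = 2.01e-07), and *Pknox2* 3.94-fold lower, with 0.563 and 0.349 CPM against 1.58 and 2.03 CPM (log2 −1.98, SE 0.455, adjusted p = 0.000759). *Pbx2* lay at 29.0 and 30.7 CPM against 33.4 and 29.3 CPM (log2 −0.070, −0.26 to 0.12). It turned to 0.39 (adjusted p = 0.00141) when GC content and transcript length were entered as offsets. The 3 members called stood against 52.6% of 16816 genes called between the clones, so a difference between the clones was common. The summed neural progenitor markers were at 54.2 to 69.2 CPM in these BAP1-AID libraries and at 38.6 to 40.6 CPM in UTX-AID, and their part was not tested.

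The 6 h response to RA was smaller in UTX-AID than in BAP1-AID for *Meis2* and *Pbx2*. Without IAA the difference was −1.14 on the log2 scale for *Meis2* (SE 0.178, 95% interval −1.51 to −0.77, adjusted p = 0.00172) and −1.02 for *Pbx2* (SE 0.125, −1.28 to −0.76, adjusted p = 8.64e-05). These were 2 of 8 members where 0.505% of all genes were called. *Meis1* differed by −1.23 (SE 0.304, −1.86 to −0.60, adjusted p = 0.0774), and its adjusted p was 0.0195 with DESeq2, 0.0142 without −IAA 3 h replicate 1 and 0.0124 without −IAA 3 h replicate 2 of BAP1-AID. In the +IAA libraries, a comparison added after the data were seen, the difference was −1.09 for *Pbx2* (adjusted p = 2.02e-05), −1.32 for *Meis1* (adjusted p = 0.0239) and −0.62 for *Meis2* (adjusted p = 0.102). *Pbx2* therefore passed in both arms, *Meis2* in the −IAA arm and *Meis1* in the +IAA arm, and the arms were not tested against each other. The difference of *Pknox2* was not called in either arm. It was −1.61 without IAA (SE 0.634, −2.93 to −0.30, adjusted p = 0.345) and −1.38 with IAA (adjusted p = 0.454). The clone, the tagged protein and the tag cannot be told apart here. The summed level of the 5 endoderm markers was higher with RA in BAP1-AID. Without IAA it went from 2.0 and 2.70 CPM at 0 h to 5.77 and 6.63 CPM at 6 h. In −IAA UTX-AID ESCs the sum was at 1.03 and 3.13, then 3.20 and 3.36 CPM. Only *Gata4* and *Gata6* had a mean above 1 CPM in BAP1-AID, and only *Gata6* in UTX-AID. Over the BAP1-AID libraries *Gata6* ranged from 0.173 to 4.98 CPM and *Gata4* from 0.540 to 1.95 CPM. *Gata6* had the widest range of the 5, so the sum does not show that the endoderm markers rose together. The part of these markers was not tested.

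The IAA effect on *Meis2* also differed between the clones, by −0.61 on the log2 scale (SE 0.103, 95% interval −0.83 to −0.40, adjusted p = 9.11e-05). *Meis2* was the only one of the 8 members called there, against 25.9% of all genes. *Meis1* differed by 0.36 (adjusted p = 0.148), and by 0.47 (adjusted p = 0.0220) without BAP1-AID −IAA 3 h replicate 1.

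The HOX genes whose products pair with PBX moved in the same libraries. Of 15 genes of paralog groups 1 to 5, the BAP1-AID fit tested 12 and the UTX-AID fit 14. The first clone had 10 of them risen after 3 h and 10 after 6 h in each arm. The second had 9 risen after 3 h and 10 after 6 h, again in each arm. *Hoxa3*, a Hox gene of the posterior hindbrain, went from 0.127 ± 0.0116 to 16.9 ± 0.543 CPM over 6 h in −IAA BAP1-AID ESCs and from 0.611 ± 0.0208 to 7.38 ± 0.695 CPM in −IAA UTX-AID ESCs (mean ± SD, n = 2). Its 6 h response was smaller in UTX-AID, with a log2 difference of −3.45 (SE 0.552, adjusted p = 0.00222). In −IAA BAP1-AID ESCs *Hoxb1* was listed at 0 in both libraries before RA and reached 13.9 ± 0.275 CPM at 6 h.

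Against the Hox genes, which started near the limit of 3 counts, the members that rose started from levels well above it, as the plot of 0 h against 6 h levels shows. Of 9 other TALE genes, the fits tested 8 for BAP1-AID and 7 for UTX-AID. *Tgif1*, a TALE repressor of TGF-β and RA signaling, fell at 6 h in all 4 series, from 173 ± 6.91 to 122 ± 2.56 CPM in −IAA BAP1-AID ESCs (log2 −0.47, adjusted p = 0.000230) and from 92.1 ± 0.933 to 70.1 ± 0.0685 CPM in −IAA UTX-AID ESCs (log2 −0.38, adjusted p = 0.000907). *Irx3* and *Irx5*, Iroquois genes of neural patterning, rose at 6 h in −IAA BAP1-AID ESCs, to 11.4 ± 0.924 and 6.36 ± 0.216 CPM (log2 1.01, adjusted p = 0.000275, and log2 1.17, adjusted p = 0.00158). In −IAA UTX-AID ESCs *Irx3* went from 0.374 ± 0.209 to 0.710 ± 0.120 CPM over 6 h, and *Irx5* from 0.713 ± 0.329 to 0.714 ± 0.208 CPM. Neither passed there, and their low counts, 11 to 46 in these libraries, limit what could be called.

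Among 5 partners or regulators of MEIS and PBX proteins, *Pbxip1*, which encodes a PBX-binding protein that blocks PBX from DNA, fell at 6 h in BAP1-AID. It went from 10.4 ± 0.455 to 6.49 ± 0.429 CPM without IAA (log2 −0.65, adjusted p = 0.00522) and from 6.94 ± 0.909 to 4.0 ± 0.394 CPM with IAA (log2 −0.77, adjusted p = 0.00213). It was also lower with IAA over the 3 times in that clone (log2 −0.83, SE 0.0787, adjusted p = 8.22e-06). That comparison called 36.1% of all genes and 2 of the 5 partners, *Pbxip1* and *Crtc2*, both lower. At 6 h *Pbxip1* was the only partner called without IAA, against 15.9% of all genes. With IAA *Hdac1* was called too, upward, against 15.4%. In −IAA UTX-AID ESCs the log2 fold change of *Pbxip1* at 6 h was −0.25 (SE 0.266, adjusted p = 0.737).

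**Figure D4:**
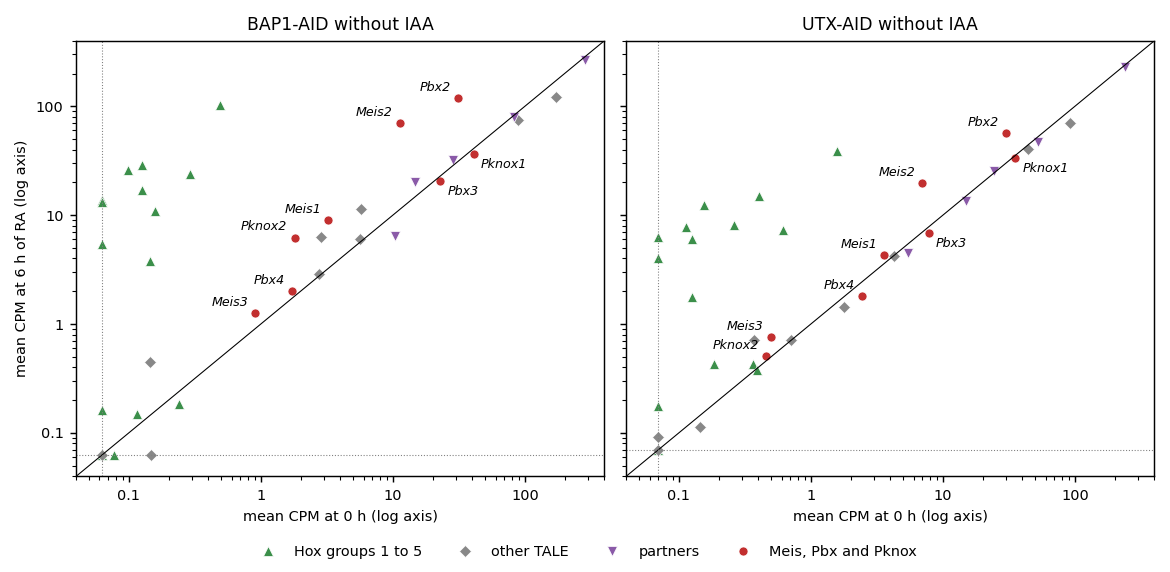
Mean CPM at 0 h (x) against mean CPM at 6 h of RA (y), both log axes, in −IAA BAP1-AID (left) and UTX-AID (right) ESCs, 1 point per gene and n = 2 libraries per mean. Circles are the 8 members, triangles pointing up Hox genes of groups 1 to 5, diamonds other TALE genes and triangles pointing down partners; the line marks equal levels and dotted lines mark 3 counts, where lower values are drawn. *Hoxa3* rises from 0.127 to 16.9 CPM on the left, while *Meis2* starts at 11.3 CPM and ends at 69.9 CPM.

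Likeness of pattern was measured for the 5 members whose group means spanned more than 1 on the log2 scale, as the Pearson correlation of log2 CPM over the 24 libraries, each centred on its clone, with 12329 genes compared. The libraries of a group share their treatment, so these values describe the pattern only. *Meis2* was most like *Gdpd5* (r = 0.977), *Aurkc* (0.973) and *Dusp9* (0.972), and *Pbx2* most like *Stra8* (0.989), *Dusp9* (0.988) and *Zfp703* (0.987). *Meis1* was most like *Kcnh1* (0.928) and *Arhgef10* (0.899). *Pknox2* was most like *Ppfibp2* (0.865), *Nxph3* (0.856) and *Basp1* (0.849), and *Pbx3* most like *Ncoa2* (0.847), *Soga1* (0.814) and *Prkacb* (0.806). *Pbx3* spanned more than 1 only through its difference between the clones, which the centring removed. Its group means lay at 19.2 to 28.3 CPM in BAP1-AID and at 6.90 to 9.71 CPM in UTX-AID. Among the members themselves, *Meis2* and *Pbx2* were closest at 0.953, *Pknox2* stood at 0.812 with *Pbx2* and 0.793 with *Meis2*, and *Meis1* at 0.784 with *Pknox2*, 0.768 with *Meis2* and 0.732 with *Pbx2*.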

How the data were processed

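Poly(A) RNA-seq libraries of 2 ESC clones (24 libraries, 12 groups of 2) were analysed from the table that the authors deposited. The authors aligned reads to mm39 with HISAT2 (2.2.1), used SAMtools (1.19) and made estimated counts per gene with StringTie (2.2.1), and the deposited values are whole numbers without normalization. StringTie derives such counts from transcript coverage. The annotation and the strandedness of the counting are not given in the sources used here. Libraries summed to 42018795 to 54034789 counts. Groups and replicate numbers were taken from the labels. The ChIP-seq data are not analysed here.

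Counts were tested with edgeR 4.0.16 in R 4.3.3 (glmQLFit and glmQLFTest, TMM, filterByExpr at its defaults of 10 counts per library and 15 in total). Each clone was fitted apart with 1 coefficient per group over 12 libraries (15695 and 16268 genes), and comparisons between clones used all 24 libraries (16816 genes). p-values were adjusted by Benjamini-Hochberg over all genes of a fit. A call was an adjusted p under 0.05, and for RA against 0 h a second count also asked for a log2 fold change above 1 in size, as in the authors' criteria. Intervals are 95% t intervals of the fit. The scripts were tested on simulated data. Python 3.11.15, pandas 2.3.3 and matplotlib 3.10.9 served for tables and figures.

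All 8 members are named. The other genes come from lists of other TALE genes, Hox genes of paralog groups 1 to 5, and partners, plus the 3 genes most like each eligible member (mean above 1 CPM and group means spanning over 1 on the log2 scale). Some genes that this rule would name are not reported here. Members and lists were chosen with earlier results of these data known. Loci and lengths are from GENCODE vM39 on mm39, and promoters from RefSeq on GRCm38.p6.

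The alternatives were DESeq2 1.42.0, RLE size factors, a block on the replicate number, every gene kept whatever its count, offsets for GC content and transcript length (splines with 5 degrees of freedom), both together, 1 fit of all 24 libraries, and each library left out in turn. One more, the difference between clones in the +IAA arm, was chosen after seeing the data.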

Additional observations from a re-analysis of the deposited data

Results flagged for a closer look

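The 3 results named here were picked out because the same contrast gave different effects in the 2 clones, by a test of the difference itself. The 6 h response to RA without IAA was smaller in UTX-AID than in BAP1-AID for *Meis2*, by a log2 difference of −1.14 (SE 0.178, adjusted p = 0.00172), and for *Pbx2*, by −1.02 (SE 0.125, adjusted p = 8.64e-05), both from edgeR's quasi-likelihood test. The IAA effect on *Meis2*, averaged over 0, 3, and 6 h, was lower in UTX-AID by −0.61 (SE 0.103, adjusted p = 9.11e-05). Without IAA *Meis2* went from 11.7 and 10.8 CPM at 0 h to 70.8 and 69.1 CPM at 6 h in BAP1-AID, and from 7.76 and 6.19 CPM to 19 and 20.2 CPM in UTX-AID. In the +IAA libraries, compared after the data were seen, the difference of the 6 h response was −0.62 for *Meis2* and lost its call (adjusted p = 0.102), and was −1.09 for *Pbx2* (adjusted p = 2.02e-05). With 2 libraries in each group, no group was large enough to be searched for single libraries that stand apart.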

How the results depend on the processing

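Of 3152 values of single members under an alternative, 3117 kept their side of the threshold, 15 lost a call, 18 gained one and 2 reversed. Among the 3117 were 190 uncalled values that changed sign. Of 395 counts of members called, 378 stayed within 1.5 times. For IAA in BAP1-AID, 1 member was called, against 2 (*Pbx2* and *Pbx3*) with GC content and transcript length offsets, alone or with the block, 0 in the fit of all 24 libraries, and 0 to 2 with 1 library left out. For the difference of the IAA effect between clones, the count went from 1 to 2 with the offsets, alone or with the block, and was 1 to 2 with 1 library left out. For 6 against 3 h in UTX-AID it went from 1 to 2 with DESeq2, with no filter, with the block, and with the block and offsets. *Pbx2* at 0 h reversed from −0.070 to 0.39 between the clones with either use of the offsets. *Pknox2* at 3 h in −IAA BAP1-AID ESCs passed with the offsets (0.81, adjusted p = 0.0465), and its +IAA call was lost in the fit of all 24 libraries (adjusted p = 0.254). The cause of these changes was not tested.

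Gene levels of same-numbered libraries showed little common deviation. Over the 15 pairs of groups per clone, their deviations correlated at −0.0387 to 0.0626 in BAP1-AID and −0.0119 to 0.0724 in UTX-AID. The labels give only a shared number, and low correlations cannot show that no batch was shared. With the replicate number as a block, *Pbx2* passed from 3 to 6 h in UTX-AID (0.23, adjusted p = 0.0149), which made 2 members in place of 1. In the other 18 comparisons the block left the count of members as it was, with 4 members at 6 h in each arm of BAP1-AID and 2 in each arm of UTX-AID. Depth limits what can be said of *Meis3* (9 to 73 counts) and of *Pknox2* in UTX-AID (13 to 53 counts).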
